A study of Mus musculus with 24 samples.

Results

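The levels of mmu-miR-192-5p, mmu-miR-194-5p and mmu-miR-122-5p were followed in the mouse mammary gland, 3 of the 1009 miRNAs listed. They were chosen by name and on their measured RPM values (reads per 1e6 reads on the listed miRNAs) over the stages, so their levels between stages are given as a description with no test. The question was whether miR-194-5p follows miR-192-5p, with which it shares a cluster, both where miR-122-5p is high and where it is absent. Whole homogenates of mammary glands from 24 female C57BL/6 mice, an inbred strain, were sequenced for small RNA with 1 library per mouse. The mice, 6 per stage, were adults 10 weeks old (W10), or were sampled in pregnancy at day 18 (P18), in lactation at day 7 (Lac7) or in involution at day 3 (Inv3), when the gland regresses. The W10 mice are numbered 1 to 5 and 7. The design text of the series exchanges the days of lactation and involution, and the days of the sample labels are used here.

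miR-192 and one copy of miR-194 are made from hairpins that lie side by side in a cluster, and both miRNAs are known from gut, liver and kidney. A second copy of miR-194 lies beside miR-215, a miRNA closely related to miR-192. miR-122 is the abundant miRNA of hepatocytes, where it regulates genes of lipid metabolism, and is used as a marker of liver RNA.

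The 24 libraries held 660346 to 1165321 reads. The median depth was 967413 reads at W10 and 952080 at P18, and it was 693167 at Lac7, the shallowest stage, and 1030978 at Inv3. Where a miRNA has 0 reads, 3 reads are taken as the limit of its true level, between 2.57 and 4.54 RPM. The upper ends of exact Poisson 95% intervals at 0 reads are higher, from 3.17 RPM (Inv3 mouse 1) to 5.59 RPM (Lac7 mouse 5). The sources do not state whether molecular identifiers were used in counting, so the limit of 3 reads and all intervals given here cover counting error only. Each value of miR-192-5p rested on at least 518 reads and each value of miR-194-5p on at least 311 reads. Depth thus limits these 2 miRNAs less than miR-122-5p, which had 3 reads or fewer in 17 of the 24 libraries. Counting error is still part of their spread within a stage. For miR-192-5p the 95% intervals of W10 mice 1 and 7 overlap (793.6 to 913.5 and 804.9 to 920.6 RPM).

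A few libraries stood apart on miR-122-5p. P18 mouse 6 had 2062 RPM (1794 reads, exact Poisson 95% interval 1968 to 2160), and the other 5 mice of its stage had 0 to 2.07 RPM. Inv3 mouse 2 had 626 RPM (695 reads, 579.9 to 674), and Lac7 mouse 6 had 54.8 RPM (39 reads, 39.0 to 74.9) beside 0 to 2.66 in the other lactating mice. Levels and differences that rest on these libraries are given with and without them, and ranks by stage mean are given with them only.

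miR-122-5p was listed at 0 in W10 mice 1, 2 and 3 and at 1.08, 1.75 and 1.99 RPM in mice 4, 5 and 7, 5 reads in all. At P18 the lowest value was 0, the median 1.56 and the highest 2062 RPM. At Lac7 these were 0, 1.495 and 54.8 RPM. Only 1 library of each of these last 2 stages, and 0 of 6 at W10, passed 3 reads, so no difference among W10, P18 and Lac7 could be detected at this depth outside those single mice. Inv3 was the stage where 5 of 6 libraries passed 3 reads. Inv3 mouse 6 had 195 RPM (141 reads, 95% interval 164 to 230.3) and mouse 3 had 112 RPM (113 reads, 92.0 to 134). Mice 4 and 5 had 35.8 RPM (25.0 to 49.8) and 34.3 RPM (24.02 to 47.5), a pair that counting error does not separate. Inv3 mouse 1 was listed at 0, and 3 reads there would be 2.57 RPM. The stage means were 345 ± 841 RPM at P18 (SD, n = 6), 167 ± 235 at Inv3, 10.1 ± 21.9 at Lac7 and 0.80 ± 0.93 at W10. Without P18 mouse 6 the P18 mean was 1.25 ± 0.85 RPM (n = 5), without Lac7 mouse 6 the Lac7 mean was 1.13 ± 1.14 RPM (n = 5), and without Inv3 mouse 2 the Inv3 mean was 75.4 ± 78.5 RPM (n = 5). With these 3 mice set aside, Inv3 alone had a mean above the limit set by 3 reads, and W10, P18 and Lac7 could not be ordered.

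miR-192-5p ranged at W10 from 729.6 to 861 RPM with a median of 825. At P18 it ranged from 666 to 2261 RPM with a median of 818, and the highest value but that of mouse 6 was 844. At Lac7 it ranged from 1159 to 1621 RPM (median 1401), and at Inv3 from 445 to 924 RPM (median 694). Every lactating mouse was above every W10 and Inv3 mouse and above 5 of the 6 pregnant mice, and P18 mouse 6 was above all of them. The stage means were 1387 ± 174 RPM at Lac7 (SD, n = 6), 1014 ± 616 at P18, 811 ± 50.8 at W10 and 694 ± 207 at Inv3. Without P18 mouse 6 the P18 mean was 765 ± 86.2 RPM (n = 5), below that of W10, and the ranges of W10, P18 and Inv3 overlapped. Scaled by DESeq2 size factors, which rest on all miRNAs of a library in place of its total, W10 had the lowest mean of the 4 stages (655), and the order of these 3 stages thus depends on the scaling. In a homogenate, fewer cells of a type and less RNA per cell cannot be told apart.

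miR-194-5p did not share the high level at lactation. It ranged at W10 from 709 to 1026 RPM (median 768), at P18 from 439 to 1072 (median 475), at Lac7 from 445 to 586 (median 541) and at Inv3 from 485 to 759.7 (median 608). The means were 819 ± 131 RPM at W10 (SD, n = 6), 603 ± 95.9 at Inv3, 576 ± 246 at P18 and 521 ± 53.4 at Lac7. Every W10 mouse was above the 5 pregnant mice other than mouse 6, whose mean was 477 ± 44.4 RPM, also with size factors (544 to 795 against 416 to 508). Every W10 mouse was above every lactating mouse in RPM but not with size factors, where the ranges overlapped (544 to 795 at W10, 551 to 722 at Lac7) and the means were 659 and 617. Inv3 overlapped W10 in RPM through mouse 2 alone, since the highest of the other 5 Inv3 mice was 632 RPM, and with size factors it ranged from 518 to 768. In RPM the ranges of Inv3, P18 and Lac7 overlapped.

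**Figure D1:**
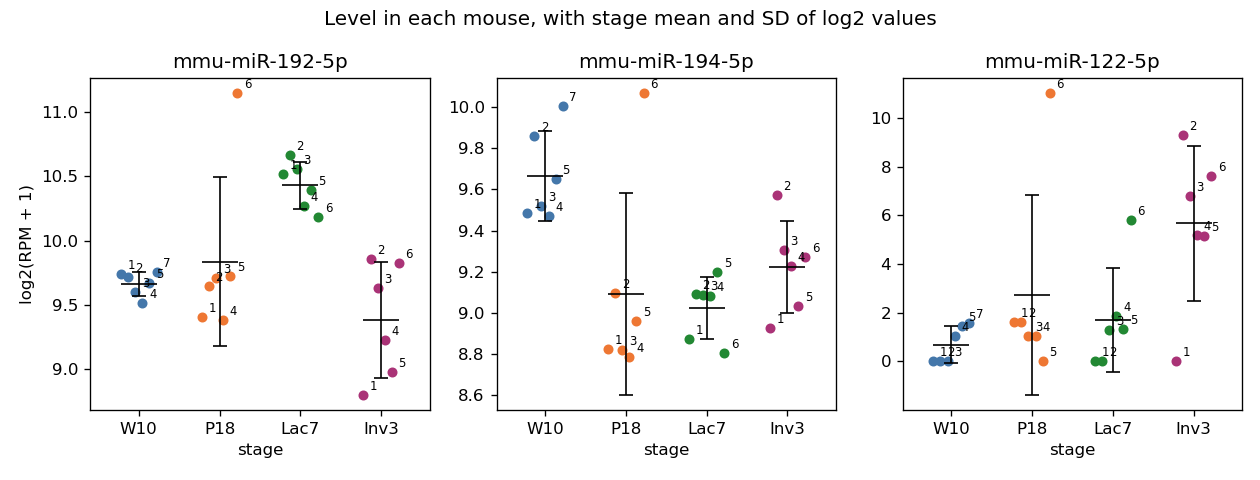
Levels of miR-192-5p, miR-194-5p and miR-122-5p as log2(RPM + 1) (vertical axes, a panel each) by stage, with a numbered point for each mouse (6 per stage) and bars for the mean and SD of the log2 values. P18 mouse 6 is highest in each panel (2261, 1072 and 2062 RPM), and the other high values of miR-192-5p are at Lac7 (1159 to 1621 RPM). The next highest value of miR-194-5p is at W10 (709 to 1026 RPM), a range that Inv3 mouse 2 also reaches (759.7 RPM). The next highest value of miR-122-5p is at Inv3 (mouse 2, 626 RPM), and Lac7 mouse 6 (54.8 RPM) lies above Inv3 mice 1, 4 and 5.

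Between consecutive stages the differences are on the log2(RPM + 1) scale, with the second value after scaling by the size factors, which moved the median of the 544 tested miRNAs from -0.32 to -0.12 for P18 against W10, from -0.34 to -0.14 for Lac7 against P18 and from 0.28 to 0.18 for Inv3 against Lac7. The 3 members passed the filter for testing, which asked for a stage mean of 1 RPM or higher, but miR-122-5p did so only through P18, Lac7 and Inv3. miR-192-5p differed by 0.17 (0.42 scaled) between P18 and W10, and by -0.09 (0.18 scaled) without P18 mouse 6. It was higher at Lac7 than at P18 by 0.59 (0.90 scaled), and by 0.86 (1.14 scaled), or 1.81-fold in the means, without mouse 6. It was lower at Inv3 than at Lac7, by -1.04 (-1.22 scaled), or 0.50 times the mean, and the mice of these 2 stages did not overlap. The difference between pregnant and adult glands thus lay within the spread between mice, and those into and out of lactation did not once P18 mouse 6 was set aside.

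miR-194-5p was lower at P18 than at W10 by -0.57 (-0.32 scaled), and by -0.77 (-0.50 scaled), or 0.58 times the mean, without P18 mouse 6. Its difference of -0.07 between Lac7 and P18 turned to 0.23 with size factors and to 0.13 without P18 mouse 6. With both changes it was 0.41, and the 6 lactating mice (551 to 722 scaled) were then above the 5 pregnant mice (416 to 508 scaled), which they overlapped in RPM. Between Inv3 and Lac7 it differed by 0.20 (0.03 scaled), about the SD between mice of 0.19, and by 0.13 without Inv3 mouse 2, which turned to -0.03 with size factors. So miR-194-5p was lower in 5 of 6 pregnant mice than in any adult mouse on both scales, the step into lactation depended on the scaling and on P18 mouse 6, and the step out of it had overlapping ranges. For miR-122-5p the differences were 2.04 for P18 against W10, -1.005 for Lac7 against P18 and 3.96 for Inv3 against Lac7. They were 0.38 and 0.65 without P18 mouse 6 for the first 2 steps. The second was -1.82 without Lac7 mouse 6 and -0.16 without both. The last was 4.78 without Lac7 mouse 6, 3.24 without Inv3 mouse 2 and 4.05 without both, and folds are not given because at each step at least 6 of the 12 values behind them are 3 reads or fewer.

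The background over all 544 tested miRNAs came from limma. A miRNA was called where its log2 difference was 1 or more in size and its p, adjusted by Benjamini-Hochberg, was under 0.05. At P18, 7.54% were called higher and 20% lower than at W10, 41 and 109 miRNAs (48 and 76 with size factors, 62 and 71 in edgeR, 53 and 66 in DESeq2). At Lac7, 7.54% were called higher and 22.6% lower than at P18, 41 and 123 miRNAs (59 and 91 with size factors, 56 and 107 in edgeR, 64 and 77 in DESeq2). At Inv3, 16.5% were called higher and 10.3% lower than at Lac7, 90 and 56 miRNAs (84 and 69 with size factors, 89 and 62 in edgeR, 74 and 67 in DESeq2). Nothing is read from these shares for the members, since the stage values chose them.

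The ratio of miR-194-5p to miR-192-5p in a mouse does not depend on the scaling of its library. At W10 it ranged from 0.839 in mouse 1 to 1.19 in mouse 7, with a mean of 1.01 ± 0.12 (SD, n = 6). At P18 it ranged from 0.474 in mouse 6 to 0.681 in mouse 2, with a mean of 0.601 ± 0.083, or 0.627 ± 0.061 without mouse 6 (n = 5). At Lac7 it ranged from 0.320 to 0.438 with a mean of 0.379 ± 0.050. Every lactating mouse lay below every mouse of the other stages, and every pregnant mouse below every W10 mouse. At Inv3 the ratio ranged from 0.681 in mouse 6 to 1.09 in mouse 1, with a mean of 0.906 ± 0.16, or 0.923 ± 0.17 without mouse 2. The Inv3 mice overlapped those of W10, and the lowest of them met the highest of P18. The 2 miRNAs thus had ratios averaging near 1 in the adult and involuting gland, and miR-194-5p was the lower of them in every pregnant and lactating mouse.

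**Figure D2:**
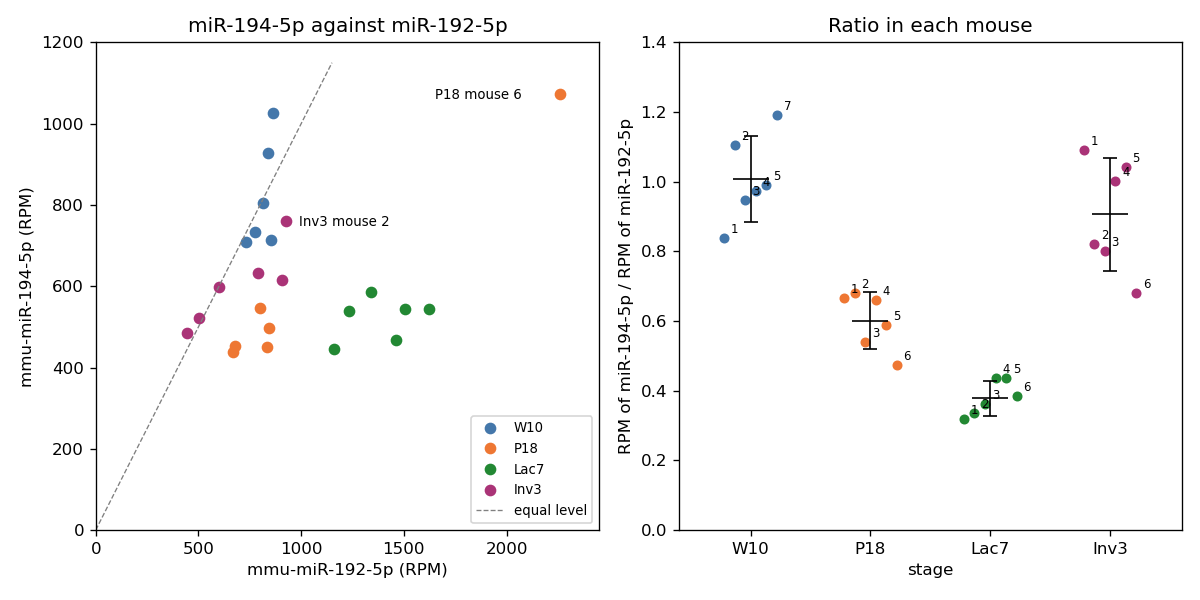
Left, RPM of miR-194-5p (vertical axis) against RPM of miR-192-5p (horizontal axis) in 24 mice coloured by stage, with a dashed line at equal levels, and right, their ratio (vertical axis, no unit) by stage with a numbered point per mouse (6 per stage) and bars for the mean and SD. The W10 mice lie between 0.839 and 1.19, the P18 mice between 0.474 and 0.681, the Lac7 mice between 0.320 and 0.438 and the Inv3 mice between 0.681 and 1.09.

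In P18 mouse 6, where miR-122-5p was highest, both clustered miRNAs were above all other mice of the stage. miR-192-5p was 2261 RPM against a mean of 765 in the other 5 mice, 2.96-fold or 1496 RPM more. miR-194-5p was 1072 RPM against 477, 2.25-fold or 596 RPM more. miR-194-5p thus followed miR-192-5p upward by less, with 0.398 RPM of excess miR-194-5p for each RPM of excess miR-192-5p, beside a ratio of 0.627 in the other 5 mice. The excess of miR-192-5p was 0.726 times that of miR-122-5p, which was 2061 RPM. Among the 161 miRNAs at 100 RPM or more in this mouse, 57 were above all other pregnant mice. The gap to the next mouse on the log2 scale was widest for miR-122-5p (9.39), then miR-192-5p (1.42) and miR-194-5p (0.97), followed by miR-144-3p (0.70) and miR-199b-5p (0.59), 2 miRNAs chosen after their values were seen. Among the 300 miRNAs at 10 RPM or more, miR-122-3p (4.10), miR-6240 (3.28), miR-6238 (1.75) and miR-582-5p (1.353) also had gaps of at least 1, the last 3 chosen after their values were seen.

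In Inv3 mouse 2, with the next highest miR-122-5p, miR-192-5p was 924 RPM and miR-194-5p 759.7 RPM, both the highest of the stage. miR-192-5p was only just above Inv3 mouse 6 (904 RPM), a gap of 0.03 on the log2 scale that was rank 36 among 138 miRNAs at 100 RPM or more. miR-194-5p had a gap of 0.26, rank 19. The excess over the other 5 mice was 277 RPM for miR-192-5p and 189 RPM for miR-194-5p, beside 550.1 RPM for miR-122-5p. At 100 RPM or more, let-7d-3p had the gap nearest to that of miR-122-5p (1.56 against 1.67). In Lac7 mouse 6, the lactating mouse with 54.8 RPM of miR-122-5p, miR-192-5p (1159 RPM) and miR-194-5p (445 RPM) were the lowest of the stage.

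Where miR-122-5p had 3 reads or fewer, miR-192-5p ranged from 445 to 1621 RPM and miR-194-5p from 439 to 1026 RPM over 17 libraries. The lowest miR-192-5p of all, 445 RPM, was in Inv3 mouse 1, where miR-122-5p was listed at 0 and miR-194-5p was the lowest of the stage at 485 RPM. W10 mice 1, 2 and 3, also listed at 0, had 852, 838 and 775 RPM of miR-192-5p and 715, 928 and 733 RPM of miR-194-5p. P18 mouse 5, the pregnant mouse listed at 0, had 844 RPM of miR-192-5p and 497 RPM of miR-194-5p. Lac7 mice 1 and 2, listed at 0 as well, had 1461 and 1621 RPM of miR-192-5p and 467 and 543 RPM of miR-194-5p.

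The spread between mice of a stage was described by correlations of log2(RPM + 1) after subtracting stage means. The members were chosen with these values known, and whether they go together was the question that chose them, so r and rho are given without a test. miR-194-5p and miR-192-5p had a Pearson r of 0.866 and a Spearman rho of 0.768 over 24 mice. Without the 2 mice farthest from the median on the x axis, P18 mouse 6 and Inv3 mouse 1, r was 0.563. The size of r thus rested in part on that pair.

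miR-192-5p and miR-122-5p had an r of 0.755 and a rho of 0.448 over 24 mice, and r was 0.1005 without P18 mouse 6 and Inv3 mouse 1, again the farthest pair. miR-194-5p and miR-122-5p had an r of 0.725 and a rho of 0.522, and r was 0.144 without the same pair. The log2 ratio of miR-194-5p to miR-192-5p had an r of -0.428 and a rho of -0.156 with miR-122-5p, and r was 0.0158 without the pair. Over the stages together, the size of r in these 3 relations thus depended on those mice.

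Within single stages of 6 mice, miR-192-5p and miR-122-5p had an r of 0.900 and a rho of 1 at Inv3. The order of mice 4 and 5 on miR-122-5p (35 and 36 reads) is not resolved by counting, and with size factors it turned, giving an r of 0.942 and a rho of 0.943. The r was 0.967 without the 2 farthest mice, 1 and 2, and 0.861 without mouse 2. At Lac7 the same relation had the opposite sign, an r of -0.831 and a rho of -0.899, with r -0.882 without the farthest mice 1 and 6, although 5 of the 6 values of miR-122-5p there are 2 reads or fewer. At P18 an r of 0.949 went with a rho of 0.086, and r was -0.0499 without the farthest mice 5 and 6 and -0.476 without mouse 6 alone. At W10, where all values of miR-122-5p were 2 reads or fewer, r was -0.0378 and rho 0.213, and r was -0.818 without the farthest mice 5 and 7. A relation of positive sign that did not hang on 1 mouse was thus present at Inv3, the stage with most libraries above 3 reads.

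miR-194-5p and miR-192-5p had an r of 0.899 and a rho of 0.943 at Inv3, with r 0.621 without the farthest mice 1 and 5, and size factors lowered them to 0.779 and 0.600. At P18 r was 0.976 and rho 0.714, and r was 0.352 without the farthest mice 4 and 6 and 0.549 without mouse 6 alone. At W10 r was 0.637 and rho 0.657, and r was 0.325 without the farthest mice 3 and 4. At Lac7, where 5 of 6 libraries had 2 reads or fewer of miR-122-5p, r was 0.362 and rho 0.543, and r turned to -0.394 without the farthest mice 2 and 6 and to -0.212 without mouse 6 alone. With size factors r and rho were 0.577 and 0.429 at W10, 0.977 and 0.771 at P18 and 0.262 and 0.486 at Lac7. The sign at Lac7 thus depended on single mice.

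miR-194-5p and miR-122-5p had an r of 0.898 and a rho of 0.943 at Inv3, with r 0.698 without mice 1 and 2, and with size factors r was 0.892 and rho 0.486. At P18 r was 0.962 and rho 0.600, with r 0.654 without the farthest mice 5 and 6 and 0.0171 without mouse 6 alone. At W10 and Lac7 r was 0.369 and -0.518, rho was 0.395 and -0.348, and without the farthest pairs r was -0.403 and 0.111. The sign thus turned at W10 without 2 of the 6 mice. At Lac7 it turned without mouse 6 alone (r 0.575), and at P18 the positive r was close to 0 without mouse 6.

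The ratio of miR-194-5p to miR-192-5p had an r of -0.758 and a rho of -0.829 with miR-122-5p at Inv3, and an r of -0.996 over the 4 mice left without mice 1 and 2. Its r there was -0.782 without mouse 2 alone and -0.712 without mouse 1 alone. At Lac7 the sign was the opposite, with an r of 0.387 and a rho of 0.812, and r was 0.818 without the farthest mice 1 and 6. At P18 r was -0.725 and rho 0.086, and r was 0.656 without the farthest mice 5 and 6. At W10 r was 0.480 and rho 0.638, and r was 0.0650 without mice 5 and 7. All values of miR-122-5p at W10, and all but mouse 6 at P18 and at Lac7, are 2 reads or fewer, so counting does not resolve the order of those mice. A lower ratio in mice with more miR-122-5p was thus seen at Inv3, and at P18 in mouse 6 alone. The lowest Inv3 ratio was in mouse 6 (0.681), not in mouse 2 (0.822), which had the most miR-122-5p. Since miR-192-5p is the divisor of the ratio, this relation is not separate from that of miR-192-5p with miR-122-5p.

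**Figure D3:**
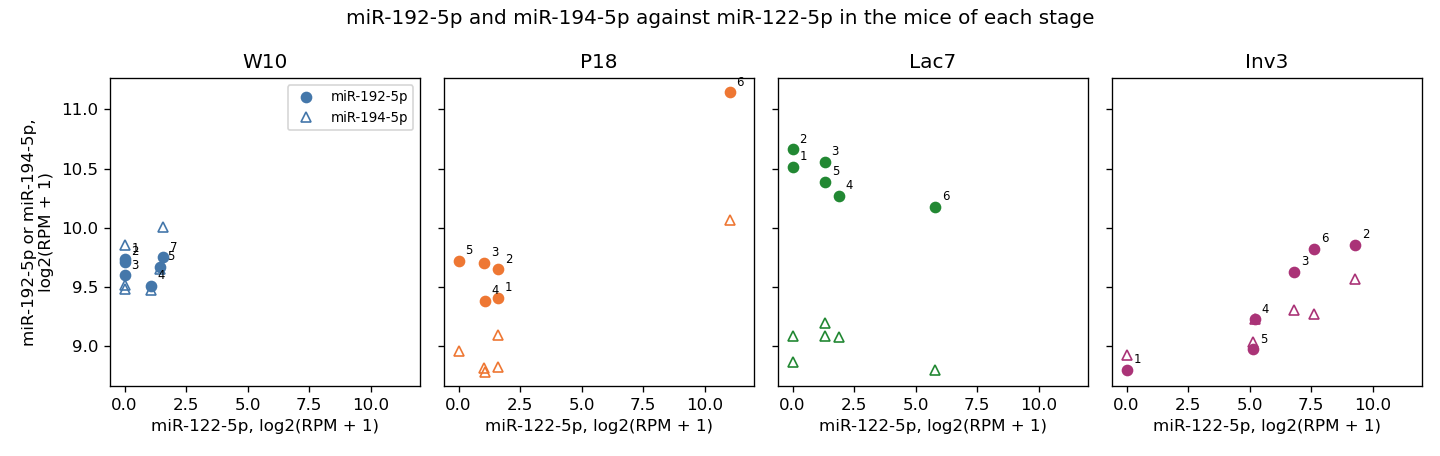
miR-192-5p (filled circles, numbered by mouse) and miR-194-5p (open triangles) as log2(RPM + 1) (vertical axis) against miR-122-5p as log2(RPM + 1) (horizontal axis), with a panel for each stage and 6 mice in each. At Inv3 mouse 1 is lowest on miR-192-5p and miR-122-5p and mouse 2 highest on both, at P18 mouse 6 lies alone at the upper right, and at Lac7 mouse 6, with 54.8 RPM of miR-122-5p, has the lowest miR-192-5p.

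By likeness over the 24 libraries, among the 284 miRNAs that averaged 10 RPM or more, miR-192-5p was most like miR-144-3p (r 0.771), miR-7a-1-3p (0.769), miR-151-5p (0.761), miR-101b-3p (0.755) and miR-7a-5p (0.743). miR-194-5p was rank 98 on that measure, with r 0.205. miR-194-5p was most like miR-199b-5p (r 0.756), miR-130a-3p (0.744), let-7a-1-3p (0.738), miR-139-5p (0.722) and miR-10a-3p (0.722). Over the stages the 2 clustered miRNAs thus had different nearest miRNAs, those of miR-192-5p having their highest means at Lac7 and those of miR-194-5p at W10. miR-122-5p was most like miR-690 (r 0.574), miR-145a-5p (0.549), miR-143-3p (0.525), let-7j (0.521) and miR-143-5p (0.4997).

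After subtracting stage means, miR-192-5p and miR-194-5p were each the nearest of the other (r 0.866), with miR-122-5p next for both (0.755 and 0.725). For miR-192-5p these were followed by miR-30e-5p (0.619), let-7a-1-3p (0.536) and miR-144-3p (0.510). For miR-194-5p they were followed by miR-30e-5p (0.714), miR-144-3p (0.679) and miR-29b-3p (0.633), and for miR-122-5p by miR-690 (0.559), miR-324-5p (0.480) and let-7d-3p (0.453). Without P18 mouse 6 and Inv3 mouse 2, over 22 libraries, miR-194-5p was rank 26 for miR-192-5p (r 0.559) and miR-122-5p rank 64 (r 0.313). These correlations are a description, and all miRNAs of a library share its depth and total.

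Ranked by stage mean among the 1009 miRNAs, from W10 to Inv3, miR-192-5p held ranks 76, 63, 56 and 69. miR-194-5p held ranks 75, 79, 81 and 74, and miR-122-5p ranks 527, 93, 267 and 120. These ranks use all mice and were not taken without the mice that stand apart. Ranks 93 at P18 and 267 at Lac7 rest on mouse 6 of each stage, without which miR-122-5p averaged 1.25 and 1.13 RPM. The Inv3 rank of miR-122-5p and the P18 ranks of miR-192-5p and miR-194-5p rest in part on such mice.

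The mature sequences show what the reads can tell apart. They are given for miR-192-5p, for miR-215-5p, which has the same seed, and for miR-194-5p, whose copies cannot be separated, from RefSeq (GRCm38.p6), with the seed (bases 2 to 8) in capitals.
mmu-miR-192-5p: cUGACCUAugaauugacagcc
mmu-miR-215-5p: aUGACCUAugauuugacagac
mmu-miR-194-5p: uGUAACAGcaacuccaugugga
miR-192-5p and miR-215-5p differ at 3 of 21 positions, C1A, A12U and C20A, counted from 1 at the 5′ end with the base of miR-192-5p first. Of 1679 mature miRNAs in the table, miR-215-5p was the only other one with the seed of miR-192-5p, and none shared the seed of miR-194-5p. Sequences matched for 2 of the 3 members.

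In GRCm38, Mir194-2 lies at chr19:6264643-6264728 and Mir192 at chr19:6264844-6264932, both on the plus strand with 115 bases between them. They lie between genes, after Atg2a and before the lincRNA gene Gm14963. Mir194-1 lies at chr1:185313319-185313385 and Mir215 at chr1:185313581-185313692, also on the plus strand with 195 bases between them. Both are in an intron of Iars2, which is on the other strand, and within the antisense gene 2010103J01Rik, Mir194-1 in its intron and Mir215 in its exon. miR-194-5p is the same 22 bases from both hairpins, so its reads cannot be assigned to one cluster.

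The partner of the second cluster was scarce. miR-215-5p had a mean of 4.01 ± 2.58 RPM at W10 (SD, n = 6, 24 reads), ranging from 1.10 to 8.61 RPM, and means of 0.53, 0.92 and 1.348 RPM at the 3 later stages, where every library had 3 reads or fewer. It was called lower at P18 than at W10 (log2 difference -1.72, SE 0.45, limma adjusted p 0.00239, n = 6 and 6), as were 20% of the 544 tested miRNAs. The call rests on 24 reads at W10, where only 3 of 6 libraries were above 3 reads, and on 3 reads in all at P18. miR-215-5p is the only tested miRNA of the gut and liver clusters list that is not a member. The later steps were not called (0.29, limma adjusted p 0.617, and 0.24, adjusted p 0.670). P18 mouse 6, with the highest miR-192-5p and miR-194-5p, was listed at 0 for miR-215-5p, where 3 reads would be 3.45 RPM. miR-215-3p was at most 2.19 RPM and miR-192-3p at most 2.68 RPM, and miR-194-2-3p had 1 read each in W10 mice 3 and 7 and 0 elsewhere.

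miR-122-3p, the other arm of the miR-122 hairpin, was found where miR-122-5p was highest. It was at 16.1 RPM in P18 mouse 6 (14 reads, exact Poisson 95% interval 8.80 to 27.0) and at 18.0 RPM in Inv3 mouse 2 (20 reads, 10.996 to 27.8). It had 1 or 2 reads in W10 mouse 2 (0.87 RPM) and Inv3 mouse 3 (1.98 RPM) and was listed at 0 in the other 20 libraries. It was not called at any step (log2 differences 0.53, -0.68 and 0.97, limma adjusted p 0.523, 0.396 and 0.216), and without P18 mouse 6, Lac7 mouse 6 and Inv3 mouse 2 these differences were -0.15, 0 and 0.32. miR-122-3p passed the filter only through its means at P18 (2.68 RPM) and Inv3 (3.33 RPM). These were 0 without P18 mouse 6 and 0.40 RPM without Inv3 mouse 2, so nothing is read from the missing calls. The liver list also held miR-802-5p, which is known from liver and pancreas. It was at 4.60 RPM in P18 mouse 6, at 2.04 RPM in P18 mouse 1, and at most 1.5 at Lac7 and 1.02 at Inv3 (limma adjusted p 0.160, 0.6246 and 0.580). miR-802-5p passed the filter only through its P18 mean of 1.11 RPM, which rests mostly on mouse 6, so nothing is read from these missing calls either. The list held miR-802-3p as well, which was at most 2.81 RPM and too low to be tested.

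The liver list of 4 miRNAs summed to 2083 RPM in P18 mouse 6, with miR-122-5p as its most abundant miRNA and miR-802-3p at 0, and to 0 to 4.08 RPM in the other pregnant mice. At Inv3 it summed to 644 RPM in mouse 2, with both arms of miR-802 at 0, and to 0, 114, 36.9, 34.3 and 197 RPM in mice 1, 3, 4, 5 and 6. It summed to 57.6 RPM in Lac7 mouse 6 and to at most 3.99 RPM in the other lactating mice, and to at most 1.99 RPM at W10. The sum is nearly all miR-122-5p, and without that member it was 0, 18.0, 1.98, 1.02, 0 and 1.38 RPM in Inv3 mice 1 to 6. The 2 tested miRNAs of the list other than the member were not called at any step, from which nothing is read, as said above. Their medians were 0.61, -0.46 and 0.35, beside -0.32, -0.34 and 0.28 for all tested miRNAs, and 0.09, 0.10 and less than 0.01 in size without the 3 mice that stand apart. The part of liver RNA in the levels of miR-192-5p and miR-194-5p was not tested.

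Of the 8 epithelial miRNAs in the list, led by miR-200a-3p, 5 were called higher and 0 lower at P18 than at W10 (median log2 difference 1.42), 5 higher and 1 lower at Lac7 than at P18 (1.12), and 1 higher and 6 lower at Inv3 than at Lac7 (-1.52). Over all 544 tested miRNAs, 7.54% were called higher and 20% lower at the first step (median -0.32), 7.54% and 22.6% at the next (-0.34), and 16.5% and 10.3% at the last (0.28). The sum of the list lay between 20870 and 25359 RPM at W10, between 55477 and 70250 at P18, between 120045 and 139757 at Lac7 and between 27815 and 81765 at Inv3. The sum averaged 52508 RPM at Inv3 and 22886 RPM at W10, while miR-192-5p averaged 694 and 811 RPM. At Lac7 the 6 mice had the same order on the epithelial sum as on miR-192-5p, from mouse 2 (139757 and 1621 RPM) down to mouse 6 (120045 and 1159 RPM), an order looked at after the values were seen. At Inv3 the sums were 31365, 27815, 77451, 63275, 33376 and 81765 RPM in mice 1 to 6. The order of mice 6, 3, 4, 5 and 1 was that of their miR-192-5p and of their miR-122-5p in RPM. It was again looked at after the values were seen, and counting does not separate mice 4 and 5 on miR-122-5p. Inv3 mouse 2, with the lowest epithelial sum and the highest miR-192-5p, miR-194-5p and miR-122-5p of the stage, broke that order. With mouse 2 included, 0 of 6 Inv3 mice had the same rank on the sum and on miR-192-5p. P18 mouse 6 had 69724 RPM, next below the highest sum of its stage, and 0 of 6 pregnant mice had the same rank on both. At W10, 1 of 6 had the same rank, and mouse 7 was highest on miR-192-5p and lowest on the sum, while mouse 4 was lowest on miR-192-5p and highest on the sum. The part of epithelium in these levels was not tested.

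Other cell types were followed by lists, and their sums are given where P18 mouse 6 or Inv3 mouse 2 was among the 2 highest or the lowest of its stage. Red blood cell miRNAs, led by miR-451a, summed to 1101 RPM in P18 mouse 6 and to 400.2 to 882 RPM in the other pregnant mice, and to 527 RPM, the lowest of the stage, in Inv3 mouse 2. Of the 4 tested, 2 were called lower at P18 than at W10 (median -0.80), 1 higher at Lac7 than at P18 (0.32) and 1 lower at Inv3 than at Lac7 (0.23). Over all 544 tested miRNAs, 20% were called lower at P18 than at W10 (median -0.32). At Lac7 7.54% were called higher than at P18 (-0.34), and at Inv3 10.3% lower than at Lac7 (0.28). Myeloid miRNAs, led by miR-142a-5p, summed to 23187 RPM in P18 mouse 6, above the 6903 to 20967 RPM of the others of its stage, and to 23091 RPM in Inv3 mouse 2, next below mouse 1 (23540 RPM). Skeletal muscle miRNAs, led by miR-133a-3p, summed to 2164 RPM in P18 mouse 6, below mouse 4 (2420 RPM) and above the 194 to 641 RPM of the others, and to 330 RPM in Inv3 mouse 2, next below mouse 5 (947 RPM). Lymphocyte miRNAs, led by miR-342-3p, summed to 1637 RPM in P18 mouse 6, the lowest of its stage, and to 3743 RPM in Inv3 mouse 2, the highest of its stage. Endothelial miRNAs, led by miR-126a-3p, summed to 16421 RPM in P18 mouse 6, the highest of its stage, and to 12532 RPM in Inv3 mouse 2, the lowest of its stage. Fibroblast and smooth muscle miRNAs, led by miR-143-3p, summed to 205226 RPM in P18 mouse 6, next below mouse 5 (214796 RPM). The brain list, led by miR-9-5p, summed to 70.2 RPM in Inv3 mouse 2, the highest of its stage, and the pancreas list to 2.70 RPM there, next below mouse 6 (2.76 RPM). None of the sums that were highest or lowest in these 2 mice lay far enough from the next mouse to pass Dixon's 95% limit for 6 mice. Their part in the levels of the members was not tested.

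The lists below hold 2 to 5 tested miRNAs each, and over all 544 the shares called lower were 20%, 22.6% and 10.3% at the 3 steps and those called higher 7.54%, 7.54% and 16.5%, with medians of -0.32, -0.34 and 0.28. Of the lists, 2 of 3 lymphocyte miRNAs were called lower at P18 than at W10 (median -1.14), 3 lower at Lac7 than at P18 (-1.79) and 3 higher at Inv3 than at Lac7 (1.99), and of 3 myeloid miRNAs these were 2 (-1.29), 2 (-1.34) and 3 (1.55). Of 5 fibroblast and smooth muscle miRNAs, 1 was called lower (-0.69), 3 lower (-1.05) and 3 higher (1.16) at the same steps. Of 4 skeletal muscle miRNAs, 3 were called lower at P18 (-3.66) and 2 lower at Inv3 (-1.88), and at Lac7 the 4 were not called (0.74). The 2 endothelial miRNAs were not called at any step (-0.36, 0.36 and -0.06). Of 2 pancreas miRNAs, 1 was called lower at Lac7 (-1.09) and 1 higher at Inv3 (0.65), and at P18 neither was called (-0.65). The pancreas sum was at most 4.33 RPM at P18, 1.5 RPM at Lac7 and 2.76 RPM at Inv3, near or below the limit set by 3 reads, so nothing is read from these calls. Of 2 brain miRNAs, 1 was called lower at P18 (-0.58), and neither was called at Lac7 (-0.52) or Inv3 (0.28). The sums were at most 10.8 RPM for pancreas and 200.6 RPM for brain. With size factors, 1 fewer miRNA was called lower at P18 for red blood cells, lymphocytes and fibroblasts, and 1 fewer fibroblast miRNA at each of the later steps.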

How the data were processed

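Small RNA reads of 24 libraries were assigned with QuickMIRSeq and miRBase 22 by the authors, and the deposited values are RPM. The submitters' processing notes name FastQC, MultiQC, Trimmomatic 0.36, cutadapt and the build GRCm38. Values of a library were whole multiples of 1 step, which gave whole reads for 100% of the values within 0.01 RPM. The step of W10 mouse 7 lies close to 1 RPM, so for that library only its higher values tell reads from RPM. The reads served for counting intervals and for the alternatives. Libraries of a stage were checked for duplicates and none was left out, and the 16 names ending in @ were kept.

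Of 1009 miRNAs, the 544 whose mean reached 1 RPM at any stage were tested on log2(RPM + 1) with limma 3.58.1 (lmFit, eBayes with trend) in R 4.3.3, in one fit over 24 libraries, two-sided, with Benjamini-Hochberg adjustment over all of them. Called means a log2 fold change of 1 or more in size with an adjusted p under 0.05; the added 1 understates changes of low miRNAs. The study's methods name DESeq2, and limma was used because the values are RPM. The calling was tested on simulated data. Relations between mice are given as Pearson r and Spearman rho over 24 mice with stage means subtracted, and within each stage. Two-sided permutation tests of them (100000 permutations within stages, Benjamini-Hochberg over 4, and exact permutation within a stage, over 16) were run but their p-values are not given, since the values chose the members. Tables and permutations were handled in pandas 2.3.3 and numpy 2.4.6 (python 3.11.15), ranks and counting intervals used scipy 1.17.1, and plots matplotlib 3.10.9.

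Named are the 3 members, the other arms and the paralogous cluster, the miRNAs of 11 cell type lists (44 of 46 found, miR-194-1-3p and miR-486b-5p not analysed here) and the 5 miRNAs most like each member. The lists are liver, gut and liver clusters, epithelium, red blood cells, lymphocytes, myeloid cells, endothelium, fibroblasts and smooth muscle, skeletal muscle, pancreas and brain. The members and lists were chosen with earlier results of these data known. Alternatives were pseudocounts of 0.1 and 10, no filter, a fit over 12 libraries, a block for the mouse number, size factors, edgeR 4.0.16 and DESeq2 1.42.0 on the recovered reads, stage medians, ratios of sums, and mice or stages left out. Added after seeing the data were leaving out P18 mouse 6 and Inv3 mouse 2 together, leaving out mice that stand apart under size factors, and size factors within stages.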

Additional observations from a re-analysis of the deposited data

Results flagged for a closer look

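A mouse was listed where its gap to the nearest mouse of the stage exceeded Dixon's 95% critical share of the range of the 6 mice. Of 75 groups of 6 mice examined, 18 passed this limit. By chance about 1 in 20 groups does so, a rate not set against these 18, since 5 are the members, chosen on these values, 4 are list sums made mostly of members, and 4 are a single read among zeros. P18 mouse 6 stood above the others of its stage for miR-192-5p (2261 RPM), miR-194-5p (1072 RPM), miR-122-5p (2062 RPM), miR-122-3p (16.1 RPM) and miR-215-3p (1.15 RPM, 1 read), and for the sums of the liver list (2083 RPM) and of the gut and liver clusters list (3336 RPM). Inv3 mouse 2 stood above for miR-122-5p (626 RPM), miR-122-3p (18.0 RPM), the liver list (644 RPM), and miR-192-3p and miR-215-3p (0.90 RPM each, 1 read). Lac7 mouse 6 stood above for miR-122-5p (54.8 RPM) and the liver list (57.6 RPM).

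The single read of miR-122-3p in W10 mouse 2 (0.87 RPM) was far from the other adults, all at 0, as any single read among zeros is. For lists other than liver, W10 mouse 1 had the sum farthest from its stage for fibroblasts and smooth muscle (211305 RPM), Inv3 mouse 5 for skeletal muscle (947 RPM) and P18 mouse 1 for brain (47.9 RPM). The liver list is mostly miR-122-5p, and the gut and liver clusters list mostly miR-192-5p and miR-194-5p, so those sums and members are not separate observations.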

How the results depend on the processing

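The number of miRNAs called was 150, 164 and 146 for the 3 steps from W10 to Inv3. With a pseudocount of 10 it was 88, 82 and 79, and 57 of 60 alternatives were within 1.5 times of these counts, leaving out each mouse giving 145 to 155, 157 to 170 and 135 to 158. These are totals, and the miRNAs called lower moved more, at P18 against W10 from 109 to 71 in edgeR and 66 in DESeq2, and at Lac7 against P18 from 123 to 77 in DESeq2. With the mouse number as a block the counts were 150, 163 and 146. The mouse numbers showed no pairing on average: over 188 miRNAs, correlations averaged -0.05 in the 33 pairs of like number and 0.004 in the 183 other pairs. Single pairs of like number went down to -0.79, and 13 of the 33 were above 0.1, so the average cannot exclude a link between some of them.

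The 144 alternatives that changed 1 choice for the 9 stage differences, and the 32 for the 4 ratios, moved them by less than the SD between mice. Size factors together with single mice left out, chosen after seeing the data, moved 3 differences by more than it: miR-192-5p at Lac7 against P18 (0.59 to 1.14) and miR-194-5p there (-0.07 to 0.41), both without P18 mouse 6, and miR-194-5p at Inv3 against Lac7 (0.20 to -0.03 without Inv3 mouse 2, or -0.01 without Lac7 mouse 6). With 1 choice changed, signs turned for miR-192-5p at P18 against W10 (-0.01 with medians), for miR-194-5p at Lac7 against P18 (0.19 with medians) and for miR-122-5p at Lac7 against P18 (0.65 without P18 mouse 6). The SD between mice takes in the mice that stand apart, and for miR-122-5p it was 2.95, 3.27 and 2.72 at the 3 steps. A move from 2.04 to 0.38 without P18 mouse 6 stays within it, so for miR-122-5p this limit says nothing about stability.

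The relation of miR-194-5p with miR-192-5p kept a positive r in each pooled alternative (0.650 to 0.887 over single mice left out). The r of 0.755 for miR-192-5p with miR-122-5p was 0.1005 without the 2 farthest mice, 0.497 without P18, 0.691 without Inv3 and 0.313 without P18 mouse 6 and Inv3 mouse 2, chosen after seeing the data, and it was 0.913 without Lac7 and 0.851 with a pseudocount of 10. Leaving out single mice gave 0.450 (P18 mouse 6) to 0.872. For miR-194-5p with miR-122-5p the r of 0.725 was 0.144, 0.395, 0.699, 0.208, 0.863 and 0.781 in the same order, with 0.372 (P18 mouse 6) to 0.855 for single mice. The r of -0.428 for the ratio with miR-122-5p was -0.538 with a pseudocount of 10, -0.505 without W10 and -0.596 without Lac7, was -0.287 without P18, -0.251 without Inv3 and -0.196 without P18 mouse 6 and Inv3 mouse 2, turned to 0.0158 without the 2 farthest mice, and ranged from -0.492 to -0.240 (without P18 mouse 6) over single mice. The cause was not tested. Depth limits miR-122-5p and the minor arms, which had 3 reads or fewer in most libraries.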
